A study of Nannochloropsis oceanica with 6 samples.

Results

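Transcription factor genes of Nannochloropsis oceanica were followed through 2 days of nitrogen deprivation. A gene was included when its Swiss-Prot or NR description held the words transcription factor, Myb, bZIP, homeobox, heat shock factor or transcriptional activator and no KEGG pathway was assigned to it, with 1 further gene (NO12G00520) and any description of a protein kinase or Myb-binding protein left out. This gave 59 of the 10569 genes in the files. By description 24 were Myb genes, 5 were heat shock factors, 2 were homeobox genes and 28 were of other kinds, and none was a bZIP gene.

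Nannochloropsis oceanica is a unicellular marine alga that is known for storing triacylglycerol when nitrogen is withdrawn. Polyadenylated RNA of strain IMET1 was sequenced in 6 libraries, 2 per group, so that gene expression under nitrogen deprivation could be set beside changes in chromosome architecture. C0 cells (day 0) were taken from growing, nitrogen-replete cultures in continuous light (80 µmol per square metre and second). N1 and N2 cells were washed, moved to nitrogen-free medium in weaker light (50 µmol per square metre and second) and collected after 1 and 2 days. The C0 sample was taken before washing and transfer, so nitrogen withdrawal, lower light and transfer cannot be told apart in any comparison with C0. N2 and N1 differed, by the labels, only in time. By the paper's read statistics both N2 libraries also had more reads and lower base quality than the N1 libraries. The libraries of a group are called biological replicates in the paper. The labels do not say whether they came from different cultures, and where they did not, the p-values measure only a technical spread.

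Transcription factors bind DNA at or near genes and recruit or block RNA polymerase, and their genes are often themselves switched when growth conditions change. Heat shock factors bind the promoters of chaperone genes. Myb proteins bind DNA through repeats of a helix-turn-helix domain. In flowering plants the MYB3R type controls cell division genes, and other Myb proteins control metabolism and development.

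Library totals lay between 4875888 and 6523021 estimated counts. Levels are given as CPM, counts scaled to a common library total and by the TMM factor that adjusts a library for its composition, and so are relative to all RNA sequenced. Less RNA per cell could not be seen in these bulk samples. The test covered the 9736 genes that reached 1 CPM in 2 or more libraries, 58 of the 59 members among them. The other, the Myb gene NO02G06050, had 1 count in C0 replicate 1, 2 counts in N1 replicate 2 and none elsewhere. Among the 52 members that averaged 5 CPM or more the libraries of a group differed by a median of 1.06-fold in C0, 1.08-fold in N1 and 1.06-fold in N2. The widest such gap, 1.88-fold, was that of NO06G02880 in N1.

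Other annotation of the members was in part of the same kind. A DNA-binding or transcription term was carried by 40 of the 59 members, and 41 were placed in the transcription class of the KOG database. Neither count was made for all genes. These annotations are also not known to be independent of the descriptions, so they are no test of membership. All 5 heat shock factors had the KEGG orthology name HSFF, whereas 16 of the 24 Myb genes were placed by KOG in the Myb superfamily. The members were spread over 27 chromosomes by their identifiers. Some were matched by words that do not describe a DNA-binding factor, such as NO15G02820 (Target of Myb protein 1, a vesicle sorting adaptor in animals), or had descriptions that differ, such as NO20G02470 (a ciliary protein in Swiss-Prot, transcription factor IIB in NR). NO03G03730 is annotated as the general transcription factor BTF3, a protein also known as a subunit of the nascent polypeptide-associated complex at the ribosome.

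Levels per length were compared first, as FPKM, fragments scaled by gene length and library size. The median member lay at 23.5 FPKM in C0, 24.5 FPKM in N1 and 22.1 FPKM in N2. The median of all genes was 28.0 FPKM in C0, 27.1 FPKM in N1 and 28.8 FPKM in N2. Above that all-gene median stood 26 members in C0, 26 in N1 and 23 in N2. The heat shock factor NO22G01460 was the most abundant member in each group, with a mean of 309 FPKM over the libraries. BTF3 (NO03G03730) reached 196 FPKM, the Myb gene NO02G01990 reached 121 FPKM, and the homeobox gene NO06G00850 reached 38.7 FPKM, the highest of their families. The median Myb gene lay at 16.7 FPKM, against 119 FPKM for the median heat shock factor.

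**Figure D1:**
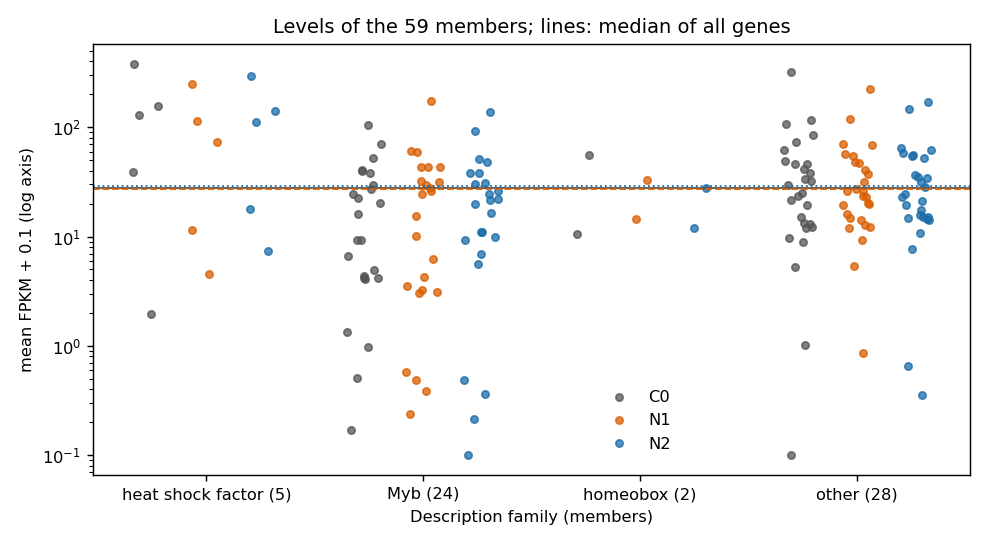
Mean FPKM plus 0.1 on a log axis for the 59 members by description family, with C0, N1 and N2 side by side in each family; points are means of 2 libraries and lines are the medians of all genes in each group. Most heat shock factors sit above the lines, the Myb genes spread from under 1 to over 100 FPKM, and the point at the foot of the axis in the remaining families is a gene listed at 0 in C0.

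Changes were next explored for all members. After 1 day without nitrogen 18 of the 58 tested members were higher in N1 than in C0 and 18 were lower, at an adjusted p below 0.05 by the quasi-likelihood test of edgeR over all 9736 genes. Of all genes tested 33.3% were higher and 37.1% lower in this comparison. The median log2 fold change was 0.03 over the members and -0.04 over all genes. A change of at least 2-fold was seen in 8 members upward and 7 downward, where 13.3% and 14.9% of all genes changed as much.

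After 2 days 23 members were higher in N2 than in C0 and 23 were lower, beside 35.0% and 34.9% of all genes. At least 2-fold were 10 upward and 9 downward, beside 13.8% and 10.9%. The median log2 fold change of the members was 0.15 and that of all genes 0.01. Both days share the C0 libraries. Called on both days in one direction were 29 members, and 2 were called in opposite directions. These 2 counts were not made for all genes and have no share to stand beside.

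From the first day to the second 17 members were higher and 20 lower in N2 than in N1, beside 29.4% and 28.5% of all genes. With library totals in place of TMM scaling this split was 19 higher and 14 lower. At least 2-fold were 6 upward and 3 downward, beside 8.70% and 3.66% of all genes. Called in at least 1 comparison were 52 members, in all 3 comparisons 21, and in none 6. Those 3 counts were not made for all genes, so they cannot be read as a trait of the members. The members' shares lay within 10 percentage points of those of all genes in each comparison and direction.

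Of the 5 heat shock factors, 3 were lower in N1 than in C0 (beside 37.1% of all genes) and 4 were lower in N2 than in C0 (beside 34.9%). Between the days 4 of the 5 were higher in N2 than in N1, beside 29.4% of all genes. NO22G01460, described as heat shock factor protein 2, stood at 1354 and 1290 CPM in C0, 901 and 880 CPM in N1 and 1009 and 1000 CPM in N2. No library of 1 group overlapped another group. Its log2 fold change was -0.57 ± 0.04 (SE) for N1 against C0 and -0.40 ± 0.04 for N2 against C0 (edgeR adjusted p = 4.0e-09 and 2.5e-07). The gain of 0.17 ± 0.04 between N1 and N2 was called (edgeR adjusted p = 0.0012), though not with N1 replicate 2 left out (0.11, edgeR adjusted p = 0.059).

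NO09G00420, a second gene described as a heat shock factor protein, dipped on the first day. It had 394 and 402 CPM in C0, 196 and 185 CPM in N1 and 361 and 368 CPM in N2. The N1 libraries lay far below all others, with a log2 fold change of -1.06 ± 0.05 against C0 and of 0.94 ± 0.05 for N2 against N1 (edgeR adjusted p = 1.1e-10 and 2.2e-09). By N2 the gene was within -0.13 ± 0.05 of C0, a difference called by edgeR (adjusted p = 0.029) and not by DESeq2 (adjusted p = 0.081). That call was also lost without C0 replicate 1, C0 replicate 2 or N2 replicate 1 (edgeR adjusted p = 0.068, 0.14 and 0.092) and with library totals (0.12).

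NO01G03910 is described as heat stress transcription factor A-1a, which in Arabidopsis is a master activator of the heat response. It had 98.6 and 96.3 CPM in C0, 31.1 and 29.2 CPM in N1 and 43.6 and 44.3 CPM in N2. The fall was the largest of the family, -1.69 ± 0.09 for N1 and -1.15 ± 0.08 for N2 against C0 (edgeR adjusted p = 5.2e-10 and 1.3e-08), with a gain of 0.54 ± 0.10 between the days (edgeR adjusted p = 3.9e-04). Its estimated counts were fractional in 5 of the 6 libraries, as happens when reads are shared with another locus. The last factor of this direction, NO04G04050, had 150 and 161 CPM in C0, 149 and 132 CPM in N1 and 131 and 134 CPM in N2. Its N1 libraries were not called apart from C0 (-0.14 ± 0.07, edgeR adjusted p = 0.079). With library totals N1 was called lower (-0.20, edgeR adjusted p = 0.021), and without N1 replicate 1 the change was -0.24. N2 was lower than C0 (-0.23 ± 0.07, edgeR adjusted p = 0.0069), a call that was lost without C0 replicate 2 (-0.18) or N2 replicate 1 (-0.22).

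One member of the family moved the other way. NO14G01060 was described in Swiss-Prot as SKN7, a yeast response regulator whose DNA-binding domain resembles that of heat shock factors, and in NR as a heat stress transcription factor. It had 6.75 and 5.94 CPM in C0, 15.9 and 16.0 CPM in N1 and 24.4 and 24.5 CPM in N2. The groups did not overlap on either day, with log2 fold changes of 1.33 ± 0.21 for N1 and 1.94 ± 0.19 for N2 against C0 (edgeR adjusted p = 4.4e-05 and 3.7e-07). The step from N1 to N2 was 0.62 ± 0.16 (edgeR adjusted p = 0.0050), and DESeq2 did not call it (adjusted p = 0.088). It was also the least abundant of the 5, at 4.55 FPKM against 309 FPKM for NO22G01460.

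**Figure D2:**
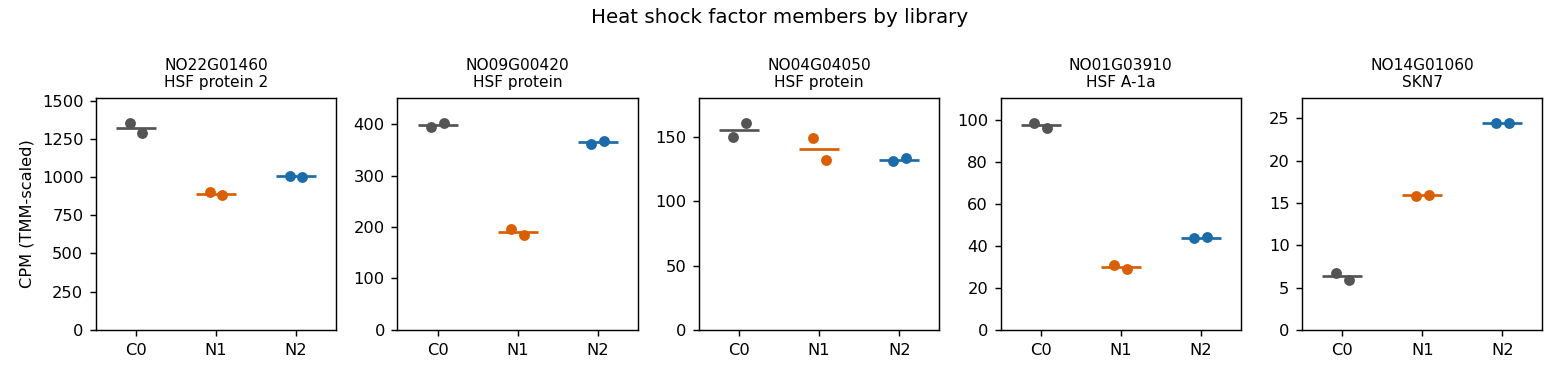
CPM (TMM-scaled) of the 5 heat shock factor members in C0, N1 and N2, each panel with its own axis from 0; points are libraries and bars are means of 2. NO22G01460, NO09G00420 and NO01G03910 are lowest in N1 and partly higher again in N2, while NO14G01060 stands at about 6, 16 and 24 CPM in C0, N1 and N2.

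The Myb genes were the largest named family. Of the 23 tested, 8 were higher and 5 lower in N1 than in C0, beside 33.3% and 37.1% of all genes. In N2 14 were higher than in C0 (60.9%, beside 35.0% of all genes) and 6 were lower (26.1%, beside 34.9%). The 14 included NO13G03030 and NO15G02820, described in Swiss-Prot as a chromatin remodelling subunit and a Target of Myb protein. They also included NO02G00550, at a log2 fold change of 0.68 (edgeR adjusted p = 0.049). That call was lost without C0 replicate 2 (0.41), N2 replicate 1 (0.58) or N2 replicate 2 (0.77). The reads of NO02G00550 were also split unevenly with its neighbour NO02G00540, and the sum of both was 0.16 over C0 in N2. At least 2-fold higher in N2 than in C0 were 8, and 4 were at least 2-fold lower, beside 13.8% and 10.9% of all genes. Between N2 and N1 10 were higher and 8 lower, beside 29.4% and 28.5%. All 6 members of any family that gained 2-fold or more between the days were Myb genes, beside 8.70% of all genes with such a gain. The median log2 fold change of the family was 0.09 in N1 and 0.36 in N2 against C0, where that of all genes was -0.04 and 0.01.

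**Figure D3:**
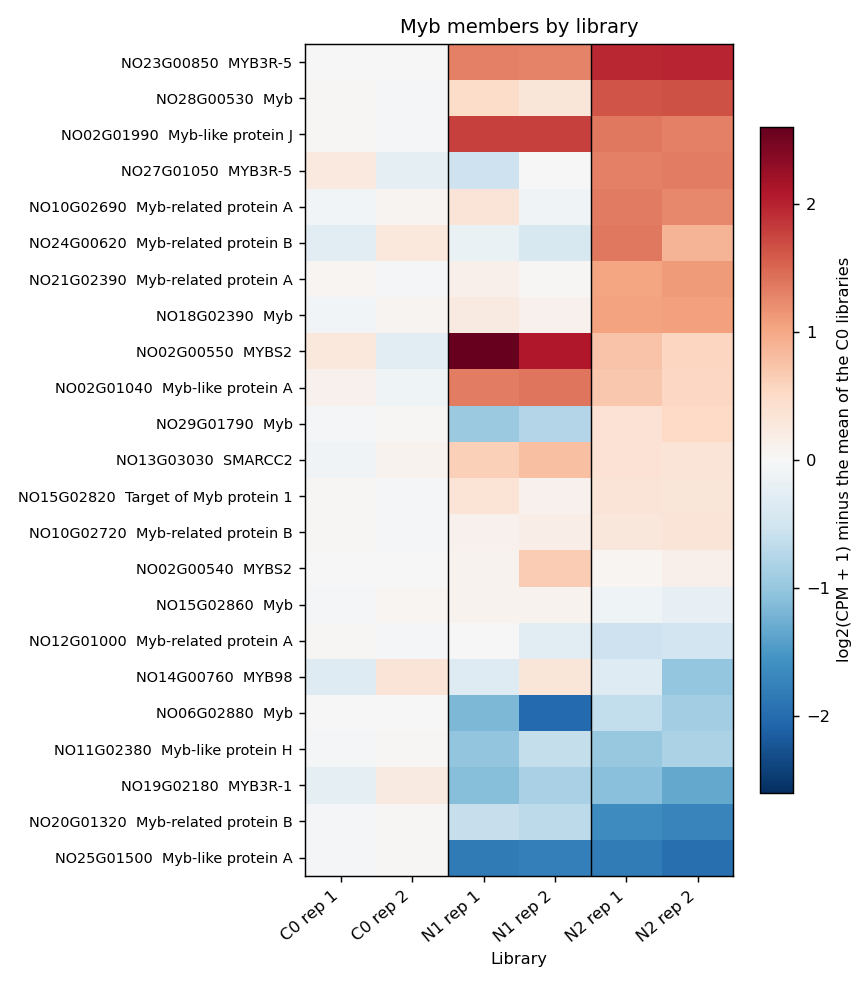
Heat map of the 23 tested Myb members (lines, ordered by their N2 level relative to C0) in the 6 libraries (columns, C0 then N1 then N2); colour is log2(CPM + 1) minus the mean of the C0 libraries, red for higher and blue for lower. A block of genes near the top is pale in N1 and red in N2, NO02G01990, NO02G01040 and NO02G00550 are reddest in N1, and NO25G01500 and NO20G01320 at the foot are blue on both days.

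Higher in N2 than in both C0 and N1, and not called apart in N1, were 6 Myb genes. Among them NO10G02720 lay near the threshold in N1 (0.14 ± 0.06 against C0, edgeR adjusted p = 0.056), with no overlap of its N1 and C0 libraries. This gain was called with DESeq2 scaling in edgeR (adjusted p = 0.024) and in an edgeR fit of N1 and C0 alone (adjusted p = 0.029). NO27G01050, described as MYB3R-5, had 10.9 and 7.47 CPM in C0, 5.95 and 8.95 CPM in N1 and 23.9 and 24.3 CPM in N2. Its C0 and N1 libraries overlapped and both N2 libraries lay above them, by a log2 fold change of 1.39 ± 0.22 over C0 and 1.70 ± 0.23 over N1 (edgeR adjusted p = 5.0e-05 and 2.0e-05). NO24G00620, named Myb-related protein B and 3R-1, had 4.57 and 7.08 CPM in C0, 4.96 and 4.05 CPM in N1 and 16.2 and 11.3 CPM in N2. The excess in N2 was 1.24 ± 0.28 over C0 and 1.61 ± 0.30 over N1 (edgeR adjusted p = 0.0013 and 3.7e-04).

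NO10G02690 (Myb-related protein A, 3R-1-like) had 8.93 and 9.96 CPM in C0, 12.1 and 8.74 CPM in N1 and 25.6 and 23.7 CPM in N2, a change of 1.38 ± 0.19 over C0 and 1.23 ± 0.19 over N1 (edgeR adjusted p = 1.8e-05 and 7.9e-05). With 2 listed genes in between, NO10G02720 (Myb-related protein B) lies near it on chromosome 10, a gene under 2-fold that was named after its values were seen. That gene was more abundant per length (44.9 FPKM against 6.38 FPKM over the libraries) and moved little, at 131 and 126 CPM in C0, 138 and 145 CPM in N1 and 158 and 162 CPM in N2, or 0.32 ± 0.06 over C0 and 0.18 ± 0.06 over N1 (edgeR adjusted p = 2.4e-04 and 0.019). The step from N1 was not called by DESeq2 (adjusted p = 0.26), nor with any N1 or N2 library left out (edgeR adjusted p = 0.061 to 0.13).

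The remaining 2 of these 6 genes passed 2-fold but stood outside the 12 largest changes of the family, and were named after their values were seen. NO21G02390 (Myb-related protein A, 3R-1) had 34.3 and 32.2 CPM in C0, 36.5 and 34.1 CPM in N1 and 68.7 and 73.2 CPM in N2. NO18G02390 (transcriptional activator Myb) had 21.0 and 23.5 CPM in C0, 26.2 and 24.1 CPM in N1 and 47.1 and 47.4 CPM in N2. Against C0 the N2 levels were 1.09 ± 0.10 and 1.08 ± 0.12 higher on the log2 scale. The KEGG orthology name MYB was carried by 5 members, which held the genes named 3R-1. It also covered NO02G01040, which is not so described and was highest in N1. Of these 5 members 4, NO02G01040 among them, were higher in N2 than in C0, beside 35.0% of all genes. The exception, NO19G02180, is also described as MYB3R-1 and was lower, at 3.77 and 5.55 CPM in C0, 1.59 and 2.13 CPM in N1 and 1.62 and 1.22 CPM in N2 (-1.70 ± 0.47 for N2 against C0, edgeR adjusted p = 0.0049, and 0.054 without C0 replicate 2).

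2 Myb genes rose at each step. NO23G00850, the other gene described as MYB3R-5, had 20.2 and 20.3 CPM in C0, 51.7 and 51.2 CPM in N1 and 81.7 and 83.1 CPM in N2. It gained 1.34 ± 0.11 in N1 and 2.02 ± 0.10 in N2 over C0 (edgeR adjusted p = 5.0e-08 and 2.0e-10), the highest N2 value among members whose C0 libraries were not at 0. NO28G00530 (transcriptional activator Myb) had 11.9 and 11.3 CPM in C0, 16.7 and 14.7 CPM in N1 and 38.1 and 38.5 CPM in N2. The N2 level was 1.72 ± 0.15 over C0 and 1.29 ± 0.14 over N1 (edgeR adjusted p = 9.9e-08 and 3.0e-06), whereas the N1 gain of 0.44 ± 0.17 (edgeR adjusted p = 0.038) was lost with DESeq2 (adjusted p = 0.13) and when any library other than N1 replicate 2 was left out (edgeR adjusted p = 0.053 to 0.18).

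A first-day dip preceded a second-day gain in 2 others. NO29G01790 (transcriptional activator Myb) had 42.7 and 44.6 CPM in C0, 21.8 and 25.4 CPM in N1 and 57.0 and 63.3 CPM in N2. It was lower in N1 by -0.89 ± 0.13 and higher in N2 by 0.46 ± 0.10 against C0 (edgeR adjusted p = 1.6e-05 and 0.0011), with a step of 1.35 ± 0.12 between the days (edgeR adjusted p = 2.4e-07). NO06G02880, of the same description, had 41.5 and 40.4 CPM in C0, 17.6 and 9.38 CPM in N1 and 25.9 and 21.4 CPM in N2. Both days lay below C0, by -1.59 ± 0.21 and -0.79 ± 0.18 (edgeR adjusted p = 7.4e-06 and 0.0012). The gain between the days, 0.79 ± 0.22 (edgeR adjusted p = 0.0059), was not called without N1 replicate 2 (0.38, edgeR adjusted p = 0.11) or N2 replicate 1 (0.65, edgeR adjusted p = 0.056).

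**Figure D4:**
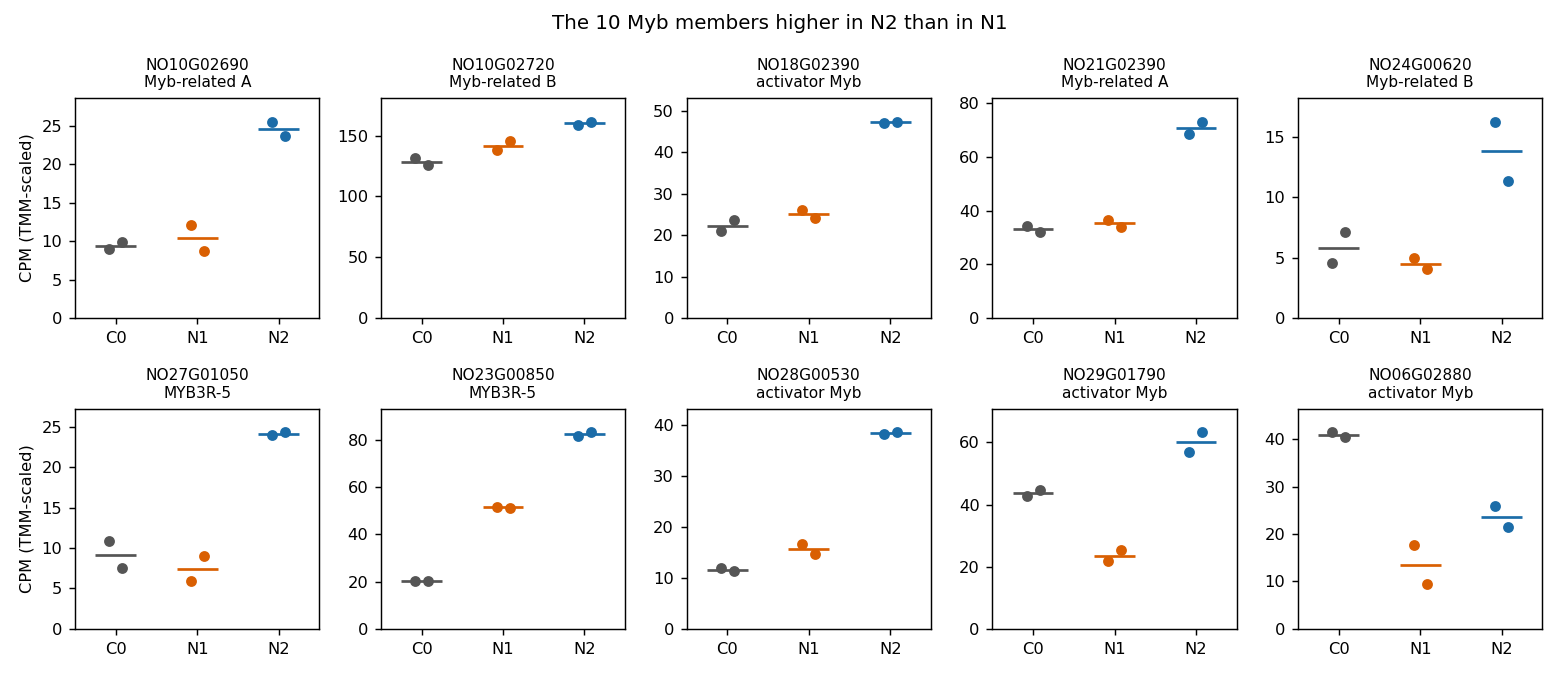
CPM (TMM-scaled) in C0, N1 and N2 of the 10 Myb members that were higher in N2 than in N1, each panel with its own axis from 0; points are libraries and bars are means of 2. In 9 panels the N2 libraries are the highest, and in NO06G02880 the C0 libraries are, at 41.5 and 40.4 CPM.

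Other Myb genes peaked on the first day. NO02G01990, the most abundant, is described as Myb-like protein J in Swiss-Prot and carries the KEGG orthology name E2F7_8, so its annotations differ. It had 163 and 155 CPM in C0, 549 and 549 CPM in N1 and 414 and 397 CPM in N2, with log2 fold changes of 1.79 ± 0.05 for N1 and 1.35 ± 0.05 for N2 against C0 (edgeR adjusted p = 2.7e-13 and 8.3e-12). NO02G01040 (Myb-like protein A) had 74.4 and 64.5 CPM in C0, 176 and 183 CPM in N1 and 113 and 101 CPM in N2. Its excess over C0 was 1.37 ± 0.08 in N1 and 0.63 ± 0.08 in N2 (edgeR adjusted p = 1.2e-09 and 1.1e-05). Both fell again between the days, by -0.44 ± 0.05 and -0.74 ± 0.07.

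NO02G00540 and NO02G00550 are neighbours on chromosome 2 and share the description MYBS2, a rice Myb factor of sugar signalling. Their estimated counts were fractional in all 6 libraries, and the N1 libraries split the reads differently between them. NO02G00540 had 101 and 101 CPM in C0, 107 and 160 CPM in N1 and 104 and 110 CPM in N2. NO02G00550 had 12.9 and 8.62 CPM in C0, 82.1 and 48.2 CPM in N1 and 18.3 and 16.0 CPM in N2. The separate levels are therefore uncertain, and a sum of both, chosen after the data had been seen, was steadier. The sum had 114 and 110 CPM in C0, 190 and 208 CPM in N1 and 123 and 126 CPM in N2, which puts N1 0.83 ± 0.06 and N2 0.16 ± 0.07 over C0 on the log2 scale, with a fall of -0.67 ± 0.06 between the days (edgeR adjusted p = 2.5e-08, 0.045 and 4.2e-07).

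Lower on both days were also NO25G01500 and NO20G01320. NO25G01500 (Myb-like protein A) had 149 and 155 CPM in C0, 41.8 and 43.7 CPM in N1 and 42.7 and 38.4 CPM in N2. It was down by -1.83 ± 0.08 in N1 and -1.91 ± 0.08 in N2 against C0 (edgeR adjusted p = 5.3e-11 and 2.6e-11), and N2 was not called apart from N1 (-0.08 ± 0.10, edgeR adjusted p = 0.53). NO20G01320 (Myb-related protein B, MYB98-like) fell at each step, with 169 and 177 CPM in C0, 114 and 108 CPM in N1 and 55.0 and 52.0 CPM in N2. It changed by -0.64 ± 0.07 in N1 and -1.69 ± 0.07 in N2 relative to C0, and by -1.05 ± 0.07 between the days (edgeR adjusted p = 5.8e-07, 2.7e-11 and 3.2e-08). Falls in N2 against C0 were also called for NO12G01000 (-0.53 ± 0.11) and for NO11G02380 (-1.77 ± 0.74), a scarce gene whose highest library had 1.91 CPM. The call of NO11G02380 (edgeR adjusted p = 0.044) was lost with DESeq2 (0.17), with the replicate block (0.065), with no filter on low counts (0.062), with library totals (0.0502) and without N1 replicate 2, N2 replicate 1 or N2 replicate 2 (edgeR adjusted p = 0.052, 0.15 and 0.084).

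The other Myb genes moved less. NO13G03030, a SWI/SNF chromatin remodelling subunit by its Swiss-Prot description, was higher than C0 by 0.72 ± 0.12 in N1 and 0.36 ± 0.12 in N2 on the log2 scale. Its N2 call (edgeR adjusted p = 0.013) was lost with DESeq2 (0.092) and without C0 replicate 1 or N2 replicate 1 (edgeR adjusted p = 0.13 and 0.053). The sorting adaptor NO15G02820 was higher by 0.24 ± 0.09 in N1 and 0.33 ± 0.08 in N2, and its N1 call (edgeR adjusted p = 0.027) was lost with DESeq2 (0.076), when either C0 library was left out (edgeR adjusted p = 0.057 and 0.12) and without N1 replicate 1 (0.35). NO15G02860 was called between N2 and N1 alone (-0.25 ± 0.10, edgeR adjusted p = 0.042), and not with DESeq2 (0.17), with the replicate block (0.054) or without C0 replicate 2, N1 replicate 1, N1 replicate 2 or N2 replicate 2 (edgeR adjusted p = 0.050 to 0.17). NO14G00760, described as MYB98, was not called in any comparison and had 0 to 1.53 CPM.

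The 2 homeobox genes were called in opposite directions in N1. NO06G00850, described as HAT3.1, a plant homeodomain protein with a PHD finger, had 149 and 157 CPM in C0, 97.1 and 90.6 CPM in N1 and 75.3 and 75.3 CPM in N2. It fell at each step without overlap, by -0.71 ± 0.07 in N1 and -1.02 ± 0.07 in N2 against C0 and by -0.32 ± 0.07 from N1 to N2 (edgeR adjusted p = 3.0e-07, 4.5e-09 and 0.0018). NO16G01160 is placed here by its Swiss-Prot description alone, putative homeodomain transcription factor 1, and had no NR description, KEGG orthology name or KOG class. This gene had 27.6 and 24.1 CPM in C0, 40.4 and 35.8 CPM in N1 and 30.7 and 28.0 CPM in N2. It was higher in N1 than in C0 (0.56 ± 0.13, edgeR adjusted p = 0.0017), and N2 was not called apart from C0 (0.18 ± 0.13, edgeR adjusted p = 0.23).

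The 28 members of other kinds were 8 higher and 9 lower in N1, and 8 higher and 12 lower in N2, than in C0. These shares (28.6% and 32.1% in N1, 28.6% and 42.9% in N2) stood beside 33.3% and 37.1% of all genes in N1 and 35.0% and 34.9% in N2. The members were grouped by description after their values had been seen. E2F proteins pair with DP proteins and switch on genes for DNA replication, while the E2F7 and E2F8 type of animals represses them. NO07G02600 (E2FA) had 45.3 and 38.1 CPM in C0, 25.8 and 28.3 CPM in N1 and 30.6 and 32.2 CPM in N2. Its partner type NO29G01020 (Dp-2) had 29.4 and 34.7 CPM in C0, 16.3 and 21.5 CPM in N1 and 20.4 and 20.3 CPM in N2. Both were lower on both days, by -0.62 ± 0.13 and -0.77 ± 0.16 in N1 and by -0.41 ± 0.12 and -0.65 ± 0.15 in N2 against C0. The N2 call of NO07G02600 (edgeR adjusted p = 0.0082) was lost with DESeq2 (0.071) and without C0 replicate 1 or N2 replicate 1 (edgeR adjusted p = 0.12 and 0.051). NO01G01190 (E2FE), with the orthology name E2F7_8, was higher in N1 (0.33 ± 0.07, edgeR adjusted p = 5.0e-04) and not called apart in N2 (0.10 ± 0.07, edgeR adjusted p = 0.19).

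NF-Y binds CCAAT boxes as a complex of A, B and C subunits, and 6 members were described as such subunits. The A subunit NO04G04190 had 12.3 and 10.5 CPM in C0, 16.7 and 22.4 CPM in N1 and 20.7 and 24.5 CPM in N2, higher by 0.77 ± 0.21 in N1 and 0.98 ± 0.20 in N2 (edgeR adjusted p = 0.0041 and 4.2e-04). The B subunit NO05G04380, whose counts were fractional in all libraries, was not called in N1 (0.00 ± 0.06, edgeR adjusted p = 0.98) and was lower in N2 (-0.27 ± 0.06, edgeR adjusted p = 9.2e-04). The C subunits went different ways. NO10G01540 had 54.2 and 50.5 CPM in C0, 36.9 and 29.2 CPM in N1 and 26.0 and 22.2 CPM in N2 and fell by -0.66 ± 0.13 and -1.12 ± 0.13 against C0 (edgeR adjusted p = 3.9e-04 and 2.6e-06). NO19G00900 fell by -0.51 ± 0.15 in N1 (edgeR adjusted p = 0.0063, DESeq2 0.073) and -0.59 ± 0.14 in N2. NO11G03190 rose by 0.30 ± 0.08 in N1 and 0.21 ± 0.08 in N2, and its N2 call (edgeR adjusted p = 0.029) was lost with DESeq2 (0.20) and with any C0 or N2 library left out (edgeR adjusted p = 0.065 to 0.13). The C subunit NO08G03640 had at most 1.19 CPM and was not called.

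GTE proteins carry a bromodomain, which reads acetylated histones, and 6 members were of this kind. None was called higher than C0 on either day, beside 33.3% and 35.0% of all genes. In N1 2 were lower, a share near the 37.1% of all genes, and in N2 4 were lower, beside 34.9%. NO16G01470 (bromodomain-containing protein 2) had 151 and 134 CPM in C0, 78.7 and 80.4 CPM in N1 and 75.6 and 80.1 CPM in N2. Its falls of -0.84 ± 0.08 and -0.87 ± 0.07 were the largest of the group (edgeR adjusted p = 1.8e-07 and 8.6e-08). NO09G02940 fell by -0.58 ± 0.07 in N1 and -0.25 ± 0.07 in N2, the second not without C0 replicate 1 (edgeR adjusted p = 0.055). Lower in N2 and not called in N1 were NO03G00220 (-0.29 ± 0.06) and NO01G04290 (-0.40 ± 0.14). The N2 call of NO01G04290 (edgeR adjusted p = 0.017) was lost with DESeq2 (0.072) and without C0 replicate 2 or N2 replicate 2 (edgeR adjusted p = 0.074 and 0.10). NO03G02990 (35.8 to 45.8 CPM) and NO04G03880 (16.7 to 25.5 CPM) were called in no comparison. NO03G02990 lay near the threshold in N2, at 0.24 ± 0.11 over C0 (edgeR adjusted p = 0.052). With library totals it was called higher in N2 (0.29, edgeR adjusted p = 0.028), and without N2 replicate 2 the change was 0.31.

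RNA polymerase III transcribes tRNA and 5S rRNA genes with the help of TFIIIC, which binds the gene, and TFIIIB, which places the polymerase. The TFIIIC subunit NO10G01320 had 240 and 251 CPM in C0, 104 and 87.2 CPM in N1 and 104 and 103 CPM in N2. It was lower on both days, by -1.36 ± 0.07 and -1.25 ± 0.07 (edgeR adjusted p = 3.4e-10 and 6.3e-10). Another TFIIIC subunit, NO09G02310, was higher in N1 only, at 29.6 and 31.4 CPM in C0, 50.4 and 49.5 CPM in N1 and 35.5 and 32.2 CPM in N2 (0.71 ± 0.11 for N1 against C0, edgeR adjusted p = 5.2e-05, and 0.15 ± 0.11 for N2, edgeR adjusted p = 0.25). The TFIIIB subunit BRF1 (NO10G00800), with fractional counts throughout, had 18.7 to 26.4 CPM and was called in no comparison.

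The gene described as the TFIIIB component BDP1, NO24G01460, was detected almost only on the first day. It had no count in both C0 libraries, 33 and 19 counts in N1 (6.54 and 4.05 CPM), and 3 and 0 counts in N2. Against a floor of 3 counts per C0 library it was at least 9.05-fold higher in N1 (edgeR adjusted p = 1.1e-04). The N2 level was 0.0422 times that of N1 (95% counting interval 0.00843 to 0.130, which covers counting error only). Its counts were fractional wherever they were above 0, as happens when reads are shared with another locus.

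Among the chromatin and co-activator members NO04G03080, a jumonji protein with the orthology name KDM5, a histone demethylase, had 315 and 310 CPM in C0, 284 and 292 CPM in N1 and 339 and 351 CPM in N2. It was lower in N1 and higher in N2 by small amounts (-0.12 ± 0.05 and 0.14 ± 0.05, edgeR adjusted p = 0.043 and 0.015), neither of which DESeq2 called (adjusted p = 0.29 and 0.065). The N1 call was lost with any C0 or N1 library left out (edgeR adjusted p = 0.094 to 0.18), and the N2 call without C0 replicate 1, C0 replicate 2 or N2 replicate 2 (0.063, 0.10 and 0.086). ENY2 (NO13G00730), a small co-activator and mRNA export protein, was higher in N2 than in C0 at 0.77 ± 0.29 (edgeR adjusted p = 0.028, DESeq2 adjusted p = 0.14), and not with any C0 or N2 library left out (edgeR adjusted p = 0.058 to 0.10). The helicase-like NO29G00430 (2.98 to 5.65 CPM) was called in no comparison.

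Among the last members BTF3, NO28G00020 and NO20G02470 changed by 2-fold or more. BTF3 (NO03G03730) had 423 and 388 CPM in C0, 145 and 168 CPM in N1 and 188 and 177 CPM in N2, lower by -1.38 ± 0.07 and -1.15 ± 0.07 (edgeR adjusted p = 2.3e-10 and 1.4e-09). NO28G00020, an F-box protein with a jumonji domain, had 28.0 and 27.4 CPM in C0, 88.4 and 91.9 CPM in N1 and 58.3 and 69.2 CPM in N2. It was higher by 1.70 ± 0.11 and 1.20 ± 0.11 against C0 (edgeR adjusted p = 2.9e-09 and 2.0e-07). NO20G02470, with its ciliary description, had 51.8 and 55.3 CPM in C0, 104 and 111 CPM in N1 and 79.6 and 82.7 CPM in N2, and was higher by 1.01 ± 0.08 and 0.60 ± 0.08 (edgeR adjusted p = 4.2e-08 and 1.3e-05).

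Transcription factor 25 (NO01G02880, fractional counts in 5 libraries) followed the same course with gains of 0.86 ± 0.12 in N1 and 0.36 ± 0.12 in N2, the second (edgeR adjusted p = 0.017) lost with DESeq2 (0.12) and without C0 replicate 1 or N2 replicate 2 (edgeR adjusted p = 0.14 and 0.067). NO09G03510, a bHLH140 gene with the orthology name of the DNA repair enzyme aprataxin, was higher in N2 (0.54 ± 0.13, edgeR adjusted p = 0.0017). NO16G02730, a TFIIH subunit by description, was not called in N1 (-0.04 ± 0.15, edgeR adjusted p = 0.80) and was lower in N2 (-0.65 ± 0.15, edgeR adjusted p = 0.0013).

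**Figure D5:**
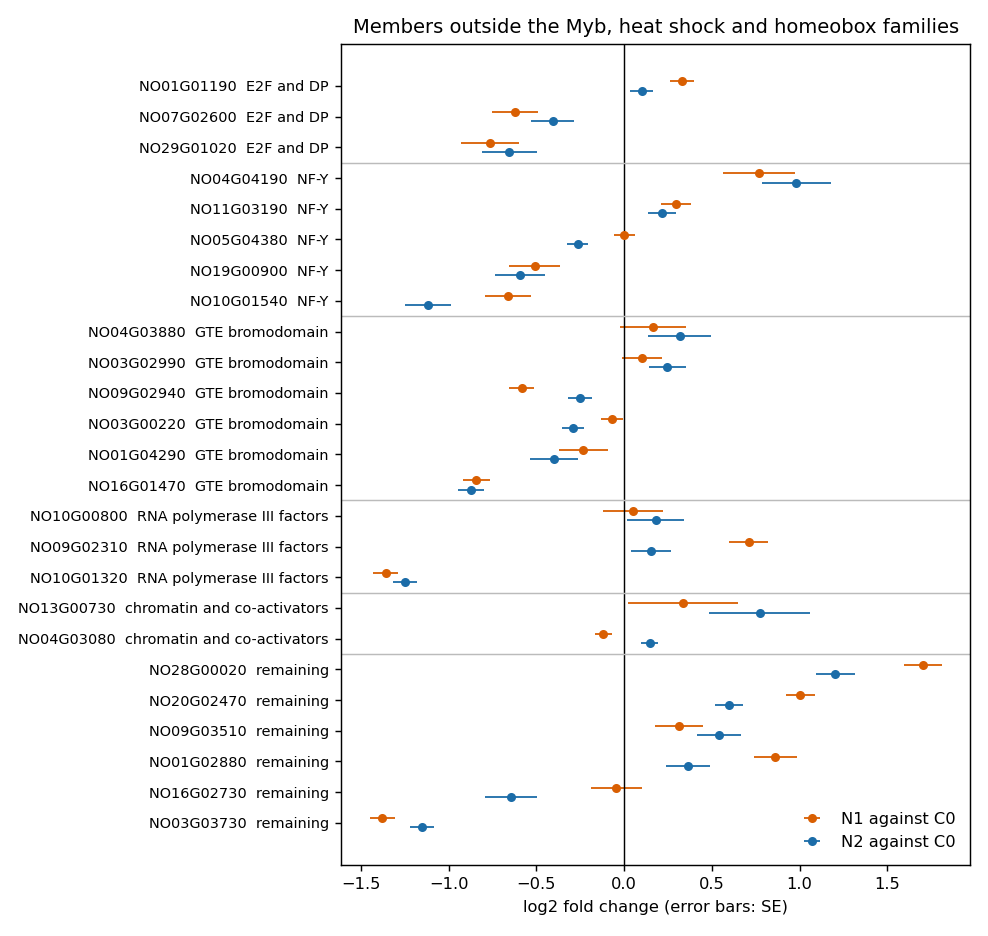
Log2 fold change for N1 against C0 (orange) and N2 against C0 (blue) of the members outside the Myb, heat shock factor and homeobox families that averaged 5 CPM or more, grouped by description; bars are 1 SE. The E2FA and Dp-2 genes and most GTE genes lie left of 0, the NF-Y subunits lie on both sides, and NO28G00020 and NO03G03730 mark the ends of the axis.

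Genes picked by other words of transcription were set beside the members. Of 26 genes described as transcription initiation factors, TATA-binding proteins or Mediator subunits 5 were higher and 14 lower in N1, and 3 higher and 15 lower in N2, than in C0. Of 38 genes whose descriptions held both RNA polymerase and subunit 7 were higher and 21 lower in N1, and 5 higher and 23 lower in N2. This second list held the polymerase subunits and also Mediator and TFIIH subunits and phosphatases of the polymerase, so the 2 lists shared genes. Some genes of the first list are also described otherwise, such as NO02G00490 (fibrillarin in NR). Of all genes 33.3% were higher and 37.1% lower in N1, and 35.0% higher and 34.9% lower in N2. The median log2 fold changes of these 2 lists were -0.32 and -0.39 in N1 and -0.29 and -0.36 in N2, where those of the members were 0.03 and 0.15 and those of all genes -0.04 and 0.01.

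Of 49 tested genes outside the members whose descriptions held words such as zinc finger, CCAAT, HMG or E2F, 16 were higher and 22 lower in N1, and 15 higher and 20 lower in N2. Many of them, such as ubiquitin ligases and a palmitoyltransferase, are not DNA-binding proteins by description. The 11 genes that matched the search words but carried a KEGG pathway were 3 higher and 4 lower in N1, and 1 higher and 4 lower in N2. Over the 4 lists, in which 11 genes stood more than once, 16 of the 112 genes tested were higher and 28 lower in N2 than in N1, beside 29.4% and 28.5% of all genes. No test compared the lists with the members.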

How the data were processed

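Per the paper's methods and the processing notes, the authors used Trim Galore on strand-nonspecific paired-end reads, STAR for alignment to the IMET1 genome (NanDeSyn), Picard to mark duplicates, and featureCounts with StringTie for quantification. Versions are not given in the sources used here. The deposited tables hold expected counts estimated by the authors for each gene, with decimals. The paper describes featureCounts counts of reads aligned to genes, so the tool that wrote the expected counts is not known here. The deposited TPM column was scaled by the authors by length and library. The deposited FPKM column was likewise computed by the authors from effective length and library total. The authors' comparison tables (log2 fold change, p-value, false discovery rate) were not used.

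Expected counts were rounded, which changed a library total by at most 19.0, and tested in R 4.3.3 by the two-sided quasi-likelihood F test that edgeR 4.0.16 provides. Group was the only term, all 6 libraries entered 1 fit, TMM factors lay between 0.962 and 1.04, and p-values were adjusted by Benjamini-Hochberg over 9736 genes. A gene was called at an adjusted p below 0.05. The SE is approximate, from the fold change and the F statistic. The common dispersion was 0.00244. DESeq2 1.42.0 was an alternative, beside other scalings, filters on low counts, unrounded counts, a replicate block, fits without each library and fits of 2 groups. Counts were called whole to a tolerance of 0.005, and 49 members had whole counts in all libraries. Reads of overlapping or antisense genes cannot be told apart without strand.

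The members, lists and groups were chosen with earlier results of these data known. Named with values were members called with at least 2-fold change and a mean of at least 5 CPM (at most 12 per family), the member of highest FPKM in each family, members of families of 3 or fewer and members at 0 in a group. The other members were named after their values were seen, so that each is accounted for. Figures were drawn with matplotlib 3.10.9.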

Additional observations from a re-analysis of the deposited data

Results flagged for a closer look

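2 members were called in opposite directions on the 2 days against C0, and the difference between the days was itself tested as N2 against N1. The Myb gene NO29G01790 averaged 23.6 CPM in N1 and 60.1 CPM in N2, beside 43.6 CPM in C0, and N2 was higher than N1 by 1.35 ± 0.12 on the log2 scale (edgeR adjusted p = 2.4e-07). The jumonji gene NO04G03080 averaged 288 CPM in N1 and 345 CPM in N2, beside 312 CPM in C0, and N2 was higher than N1 by 0.26 ± 0.05 (edgeR adjusted p = 3.1e-04). The calls of NO04G03080 against C0 were lost under several alternatives, and that between the days was kept under all 14 settings tried.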

How the results depend on the processing

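The 6 counts of members stayed within 1.5 times of their value under all 14 alternative settings, and no member result reversed. Members higher than C0 numbered 15 to 20 in N1 and 18 to 24 in N2, and members lower 15 to 19 and 18 to 23. Between N2 and N1 the ranges were 14 to 19 higher and 14 to 20 lower. DESeq2 lost 22 of the 119 calls of single members. Of these 119, 87 were kept under every alternative in which they were tested. Genes of the 4 lists set beside the members and called in either direction numbered 71 to 86 in N1 and 66 to 80 in N2 against C0, and 31 to 46 in N2 against N1.

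The transcription class of KOG was required in an alternative added after the data had been seen. Of its 41 members 9 were higher in N1 and 13 in N2 than in C0, and 9 lower in N2 than in N1. These counts stood beside 33.3%, 35.0% and 28.5% of all genes. In this class more members were lower than higher on each day against C0, and more were higher than lower in N2 than in N1. All genes also had more lower (37.1%) than higher in N1 against C0, and more higher (29.4%) than lower in N2 against N1. In N2 against C0 34.9% of all genes were lower. A difference between this class and all genes was not tested. Over all members the 2 directions were equal against C0, and more were lower than higher in N2 than in N1. With only the 49 members of whole counts, also added then, the 6 counts lay between 13 and 20. The numbers of replicates did not pair the libraries, as same-numbered deviations were correlated at -0.051, 0.041 and -0.061. With the replicate block 18 members were higher and 18 lower in N1 than in C0, and it ended 2 of the 119 calls and added none.

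The limits are those of 2 libraries per group. The mean chi-square per gene between replicates was 3.41 in N2, 2.06 in N1 and 1.75 in C0 over the genes tested. Over the members tested the median, which is not the same measure as the mean, was 0.668 in N2, 1.28 in N1 and 0.608 in C0. Membership rests on descriptions: a search of Swiss-Prot descriptions alone gave 51 members and of NR descriptions alone 35. Library totals in place of TMM moved the median of all genes by at most 0.10 (log2).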
